A study of Mus musculus with 6 samples.

Results

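The tuft cell genes described here are 10 genes, chosen by symbol among the 32285 genes of the deposited count matrices: Pou2f3, Gfi1b, Gnat3, Trpm5, Sucnr1, Alox5ap, Ptgs1, Il25, Dclk1 and Avil. All 10 were found in each of 6 single-cell libraries of mouse small intestinal organoids, 3-dimensional epithelial cultures grown from stem cells, that were collected on day 3. WT organoids were kept in DMSO (-EIPA, replicates 1 and 2) or with the inhibitor EIPA, an amiloride derivative (+EIPA, replicates 1 and 2). Organoids that carry an inducible CRISPR-Cas9 cassette gave 1 library without doxycycline (-Dox) and 1 with it (+Dox). The stocks came from adult mice, the CRISPR organoids were made from WT organoids with a lentivirus, selected with puromycin and grown from single clones, and cells were sorted as live in 5 libraries and as live and GFP-positive in +Dox. The study asked how the inhibitor and the induced edit change the lineages of the intestinal stem cell. The comparisons below give the genes of 1 rare lineage.

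Tuft cells are chemosensory secretory cells scattered through the intestinal epithelium. They use a cascade like that of taste cells, in which a receptor acts on a G protein (its alpha subunit gustducin is encoded by Gnat3), calcium is released, and the cation channel TRPM5 opens. They answer luminal metabolites and parasites by secreting the cytokine IL-25, cysteinyl leukotrienes and prostaglandins, which act on immune cells below the epithelium. POU2F3 is the transcription factor without which the lineage does not form, and GFI1B, a transcriptional repressor, is found in tuft cells and in blood lineages.

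The reference sequence before the transcription start was read for the members from RefSeq (GRCm38.p6), where 7 of the 10 had a promoter entry and Dclk1 had 2, so that 8 windows of 250 bases were searched. The POU octamer (ATGCAAAT, or ATTTGCAT on the other strand) lay in 1 of the 8 windows, that of Sucnr1, and in 526 of the 32851 promoters of the table (1.601%). The core of the GFI motif (AATCAC, or GTGATT on the other strand) lay in 1 window, that of Avil, and in 9.14% of all promoters. Both matches lie the same number of bases before the start, and neither motif was found in the windows of the other members. Windows are shown for those 2 genes, with the matched letters in capitals, and for Gnat3 and Dclk1, the members whose level in tuft-like cells differed most between the WT and the CRISPR organoids.
Sucnr1, plus strand, chr3:60081619-60081868: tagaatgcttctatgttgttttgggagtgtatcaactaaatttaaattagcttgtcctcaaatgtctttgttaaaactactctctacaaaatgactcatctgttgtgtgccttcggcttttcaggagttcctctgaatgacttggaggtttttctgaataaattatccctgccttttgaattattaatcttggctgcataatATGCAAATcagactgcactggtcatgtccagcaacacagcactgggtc
Avil, plus strand, chr10:127000459-127000708: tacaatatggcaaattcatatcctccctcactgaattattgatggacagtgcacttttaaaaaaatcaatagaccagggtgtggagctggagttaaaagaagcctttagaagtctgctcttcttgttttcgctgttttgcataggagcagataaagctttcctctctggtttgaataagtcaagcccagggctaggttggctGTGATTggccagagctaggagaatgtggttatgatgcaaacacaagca
Gnat3, plus strand, chr5:17962320-17962569: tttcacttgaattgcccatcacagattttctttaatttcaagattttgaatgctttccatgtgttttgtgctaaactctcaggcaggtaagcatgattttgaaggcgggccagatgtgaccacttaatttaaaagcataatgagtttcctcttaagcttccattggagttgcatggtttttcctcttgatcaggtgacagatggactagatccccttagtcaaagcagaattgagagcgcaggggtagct
Dclk1, plus strand, upstream start, chr3:55242114-55242363: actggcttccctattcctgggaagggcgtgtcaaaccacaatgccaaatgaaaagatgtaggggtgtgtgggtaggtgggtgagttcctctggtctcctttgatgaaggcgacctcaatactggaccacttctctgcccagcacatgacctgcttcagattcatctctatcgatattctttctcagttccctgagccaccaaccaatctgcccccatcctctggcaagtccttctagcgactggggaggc
Dclk1, plus strand, inner start, chr3:55461478-55461727: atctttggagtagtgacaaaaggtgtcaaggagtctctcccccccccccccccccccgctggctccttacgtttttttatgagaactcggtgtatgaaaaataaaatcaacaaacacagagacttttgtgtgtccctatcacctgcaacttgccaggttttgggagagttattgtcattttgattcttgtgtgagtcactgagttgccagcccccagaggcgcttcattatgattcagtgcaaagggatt

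The genes lie apart from each other on mm10, the build of the counts. By the GENCODE annotation of that build, Pou2f3 spans 43123939 to 43210369 of chromosome 9 on the minus strand, and Gfi1b 28609450 to 28621982 of chromosome 2, also minus. Gnat3 spans 17962549 to 18019834 of chromosome 5 and Alox5ap 149264767 to 149288153 of the same chromosome, both on the plus strand. Dclk1 (55242364 to 55539068) and Sucnr1 (60081869 to 60087566) are on the plus strand of chromosome 3, Ptgs1 (36230426 to 36252272) on that of chromosome 2, Il25 (54932695 to 54935837) on that of chromosome 14 and Avil (127000709 to 127020994) on that of chromosome 10. Trpm5 is on the minus strand of chromosome 7 (143069153 to 143094642). Protein-coding genes overlap 3 members on the opposite strand: Tssc4 overlaps Trpm5, Tsfm overlaps Avil and Gm21954 overlaps Dclk1. Reads were counted near the 3′ end of transcripts, so the transcripts from the 2 Dclk1 starts were not separated.

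After limits of at least 1000 genes and under 20% mitochondrial UMIs (unique molecular identifiers, the counted molecules) per cell, 87954 cells remained, between 12083 and 18211 per library, with 161670015 to 239368573 UMIs. Any pair of libraries shared 33 to 78 cell barcodes, at most 0.563% of the smaller one. Of 25 clusters, 1 was named tuft-like, from 12 markers that hold none of the 10 genes (all 12 were higher there than in other cells), and the 10 genes were kept out of the genes used to cluster. It held 1173 cells, with 185 and 400 cells in the -EIPA libraries, 180 and 271 in the +EIPA libraries, 81 in -Dox and 56 in +Dox. Their median depth was 5304 to 5671 UMIs in 5 libraries and 7896 UMIs in +Dox. They made up 1.47% and 2.196% of cells without EIPA against 1.36% and 1.90% with it (exact permutation test over libraries, two-sided p = 0.667, the smallest possible being 0.333, with no use of the pairing), and 0.460% and 0.463% of the -Dox and +Dox cells. Within the same-numbered pairs the +EIPA share was 0.930 and 0.865 of the -EIPA share. Defining markers of immune cells, which also use several of these genes, gave 5 to 12 UMIs in each library's tuft-like cells, with 5 or 6 of the 7 markers at 0, and 4 stromal markers gave at most 1 UMI.

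Most UMIs of the 10 genes lay in tuft-like cells, and Pou2f3 was spread most widely. Over all libraries 14245 of 18031 member UMIs (79.0%) lay in these cells, from 70.5% in +Dox to 86.8% in -EIPA replicate 1. By gene the share was 55.5% for Pou2f3, 73.5% for Trpm5, 75.0% for Sucnr1, 77.5% for Gfi1b, 78.7% for Ptgs1, 80.3% for Avil, 80.9% for Alox5ap, 84.4% for Dclk1, 85.6% for Il25 and 91.2% for Gnat3. The ends of this order were apart beyond counting error, with exact 95% binomial intervals of 52.8% to 58.1% for Pou2f3 and 88.3% to 93.6% for Gnat3, whereas those of Il25 (77.6% to 91.5%), Dclk1 (83.5% to 85.4%) and Alox5ap (79.3% to 82.4%) overlapped in part. The order is of pooled UMIs, to which libraries gave unequal parts (the CRISPR libraries gave 106 and 122 of the 478 Gnat3 UMIs, and 126 and 57 of the 5805 of Dclk1). Pou2f3 had the lowest share in each of the 6 libraries (41.1% to 60.2%). Gnat3 did not have the highest in +EIPA replicate 1 (76.7%, Il25 85.7%), -Dox (94.3%, Il25 10 of 10 UMIs) or +Dox (94.3%, Dclk1 96.5%, Il25 7 of 7 UMIs). These intervals cover counting error only, and the classes came from clustering the same cells, so the shares are a description.

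**Figure D1:**
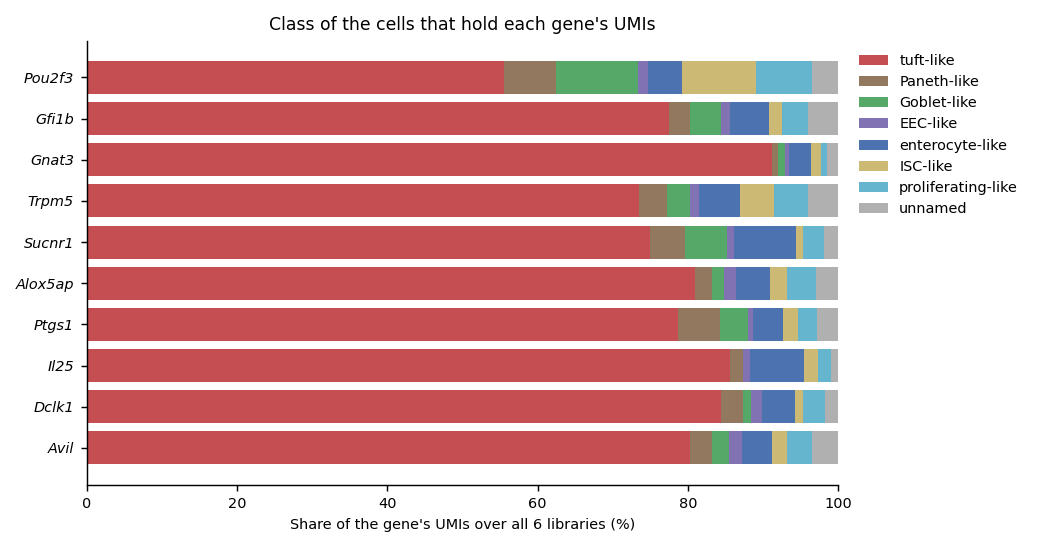
For each of the 10 genes (rows), the share in percent of its UMIs over all 6 libraries that lay in cells of each class (colours). Tuft-like cells held from 55.5% (Pou2f3) to 91.2% (Gnat3) of a gene's UMIs, and Goblet-like cells held 151 of the 1389 UMIs of Pou2f3. In the class drawn as ISC-like, the leading genes of clusters with 9032 and 3295 cells include S-phase genes beside stem cell markers. In the class drawn as Goblet-like, those of the cluster with 5961 cells include secretory progenitor markers.

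In every one of the 10 genes the tuft-like class had the highest level of the 8 classes, and the next class was far lower. Pou2f3 ran from 51.1 to 94.5 CPM (UMIs of the gene scaled to 1e6 UMIs of the sum) in the tuft-like cells of the 6 libraries, and was next highest in Goblet-like cells (1.63 ± 0.743 CPM, SD, n = 6 libraries) and Paneth-like cells (1.68 ± 0.681 CPM), which did not differ beyond their spread. In the pooled counts Pou2f3 stood at 1.56 CPM in Goblet-like and 1.47 CPM in Paneth-like cells, both secretory classes. It stood at 0.244 CPM in enterocyte-like cells, the absorptive class. EEC-like cells, also secretory, were at 0.486 CPM, below ISC-like cells at 0.565 CPM, so the levels did not divide by secretory and other classes. The larger Goblet-like cluster (5961 cells) has secretory progenitor markers beside Goblet markers among its leading genes, so this class is mixed. Paneth-like cells came next for Dclk1, Trpm5, Ptgs1, Avil, Gfi1b and Sucnr1, enteroendocrine (EEC)-like cells for Gnat3 and Alox5ap, and enterocyte-like cells for Il25. For Gfi1b, Gnat3, Sucnr1 and Il25 no other class held more than 14 UMIs, so the order below the first is not resolved. The Paneth-like levels varied between libraries more than their means differ from other classes. For Dclk1 they ran from 0.0598 to 11.1 CPM, and +EIPA replicate 1 was the highest library for Dclk1, Trpm5 (5.40 CPM), Avil (4.69 CPM), Ptgs1 (3.98 CPM) and Alox5ap (3.70 CPM). In that library the tuft-like cluster held 76.0% of Dclk1 and 73.8% of Avil UMIs, whereas cells with a UMI of at least 4 of the 12 naming markers held 91.9% and 88.8%. The part of such cells outside the cluster in the Paneth-like levels was not tested. Il25, which gave 111 UMIs in all, had 0 UMIs in Goblet-like cells, where 3 counts would have been 0.0309 CPM.

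Single tuft-like cells held several of the genes at once. At the depths measured, 917 of 1173 tuft-like cells (78.2%) had a UMI of at least 3 of the 10 genes, against 164 of 86781 other cells (0.189%). After each cell was thinned to 2000 UMIs, which left out 23 shallower tuft-like cells, the shares were 527 of 1150 (45.8%) and 12 of 86528 (0.0139%). Outside the tuft-like class, Paneth-like cells most often had 3 or more (32 of 4856, 0.659%). The next classes were not apart, with 0.239% of enterocyte-like (44 of 18416), 0.236% of EEC-like and 0.235% of Goblet-like cells, and 22 of those 44 enterocyte-like cells and 6 of the 32 Paneth-like cells were among the 10% of cells per library with the highest doublet scores. No cell had a UMI of all 10, and the highest number in a tuft-like cell was 9.

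The genes whose levels most resembled a member's were mostly other tuft genes. Across the 48 sums of class and library, and among 11897 genes, Trpm5 and Avil were each among the 3 closest genes of the other (Pearson r = 0.993 on log2(CPM + 1)), and Gnat3 and Sucnr1 were each other's closest (r = 0.990). Gnb3, a G protein beta subunit of the taste cascade, came next for both (r = 0.987). Alox5ap was closest to the guanine nucleotide exchange factor gene Vav1 (r = 0.995), Ptgs1 to the kinase gene Bmx (r = 0.992), Il25 to the kinase gene Pik3cg (r = 0.993), Gfi1b to Plpp4 (r = 0.987) and Pou2f3 to Cacna2d2 (r = 0.980). The sums share libraries, and tuft-like sums stand apart from the others for each of these genes, so r describes that separation first.

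EIPA left no member past the threshold. In tuft-like cells, with 2 libraries per group, edgeR's quasi-likelihood test passed 0 of the 10 genes at a Benjamini-Hochberg adjusted p of 0.05. It called 0.0% of 9599 genes tested, and 369 of the 9599 had an unadjusted p under 0.05. DESeq2 called 5 of the 9599 genes and edgeR with the experiment as a block 15 (0.156%), again with 0 of the 10. The median log2 fold change was 0.02 over the members and 0.01 over all genes tested. Each adjusted p below from this test was 0.9998, and values are summed CPM of tuft-like cells.

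Of the transcription factor genes, Pou2f3 stood at 94.5 and 86.9 CPM in -EIPA against 74.0 and 83.5 CPM in +EIPA. It was the only member whose groups did not overlap, being lower in both +EIPA libraries, in a comparison where 33.1% of all genes did not overlap, and its log2 fold change was -0.12 (SE 0.16). Per 100 UMIs of the 12 naming markers it overlapped, with 2.11 and 2.61 UMIs in -EIPA against 2.195 and 2.24 in +EIPA. Gfi1b rested on 12 to 46 UMIs per library, with 9.14 and 15.2 CPM in -EIPA against 10.1 and 19.8 CPM in +EIPA (log2 fold change 0.36, SE 0.36). The Gfi1b values of the 2 conditions overlapped.

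In the taste-like cascade, Gnat3 had 28.2 and 31.1 CPM in -EIPA against 16.5 and 31.4 CPM in +EIPA (log2 fold change -0.18, SE 0.28). Its low library, +EIPA replicate 1, held 23 UMIs. Trpm5, the channel, had 238 and 177 CPM in -EIPA against 207 and 197 CPM in +EIPA, the latter pair within the range of the former (log2 fold change 0.04, SE 0.17). Sucnr1, the receptor through which tuft cells sense succinate, had 6.09 and 4.59 CPM in -EIPA against 4.31 and 12.9 CPM in +EIPA. Its log2 fold change of 0.93 (SE 0.51) was the largest of the 10. The high library was +EIPA replicate 2, with 30 UMIs, and the other 3 held 6 to 13.

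Among the genes of the effector products, Alox5ap, which encodes the protein that presents arachidonic acid to 5-lipoxygenase for leukotriene synthesis, had 409 and 175 CPM in -EIPA against 203 and 253 CPM in +EIPA (log2 fold change -0.26, SE 0.30). The 2 -EIPA libraries were the highest and the lowest of the 4. Without -EIPA replicate 2 the edgeR fit called Alox5ap lower with EIPA (log2 fold change -0.76, SE 0.20, adjusted p = 0.0269), and without -EIPA replicate 1 its log2 fold change was 0.46 (adjusted p = 0.580). Ptgs1, the cyclooxygenase of prostaglandin synthesis, had 153 and 117 CPM in -EIPA against 151 and 175 CPM in +EIPA (log2 fold change 0.36, SE 0.17), where the +EIPA value was the higher of the pair in replicate 2 and not in replicate 1. Per 100 UMIs of the naming markers Ptgs1 did not overlap, with 3.42 and 3.51 UMIs in -EIPA against 4.48 and 4.68 in +EIPA. The share of all genes that do not overlap on this scale was not computed, and in CPM it was 33.1%. Il25 had 9.14 and 9.54 CPM in -EIPA against 12.9 and 9.04 CPM in +EIPA, from 12 to 27 UMIs per library (log2 fold change 0.25, SE 0.35). In CPM these 3 genes overlapped between the conditions.

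Of the remaining pair, Dclk1, a microtubule-associated kinase widely used as a tuft marker, had 853 and 472 CPM in -EIPA against 705 and 557 CPM in +EIPA (log2 fold change 0.01, SE 0.24). Avil, the actin-bundling protein advillin of the apical tuft, had 376 and 265 CPM in -EIPA against 274 and 305 CPM in +EIPA (log2 fold change -0.07, SE 0.19). For both, -EIPA replicate 1 was the highest and -EIPA replicate 2 the lowest of the 4 libraries. The summed level of the 12 naming markers was also highest in -EIPA replicate 1 and lowest in -EIPA replicate 2, at 4482 and 3327 CPM in -EIPA against 3373 and 3732 CPM in +EIPA. Enterocyte markers in the same sums were lowest in -EIPA replicate 2 too (3258 and 1386 CPM without, 4067 and 3573 CPM with EIPA). Paneth markers were higher in +EIPA in both pairs (2096 and 4466 CPM without, 2814 and 7566 CPM with EIPA), and Goblet markers were highest in +EIPA replicate 2 (2688 CPM, 1641 to 1672 CPM in the other 3), the library with the high Sucnr1 value. The part of any of these markers in the member values was not tested.

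**Figure D2:**
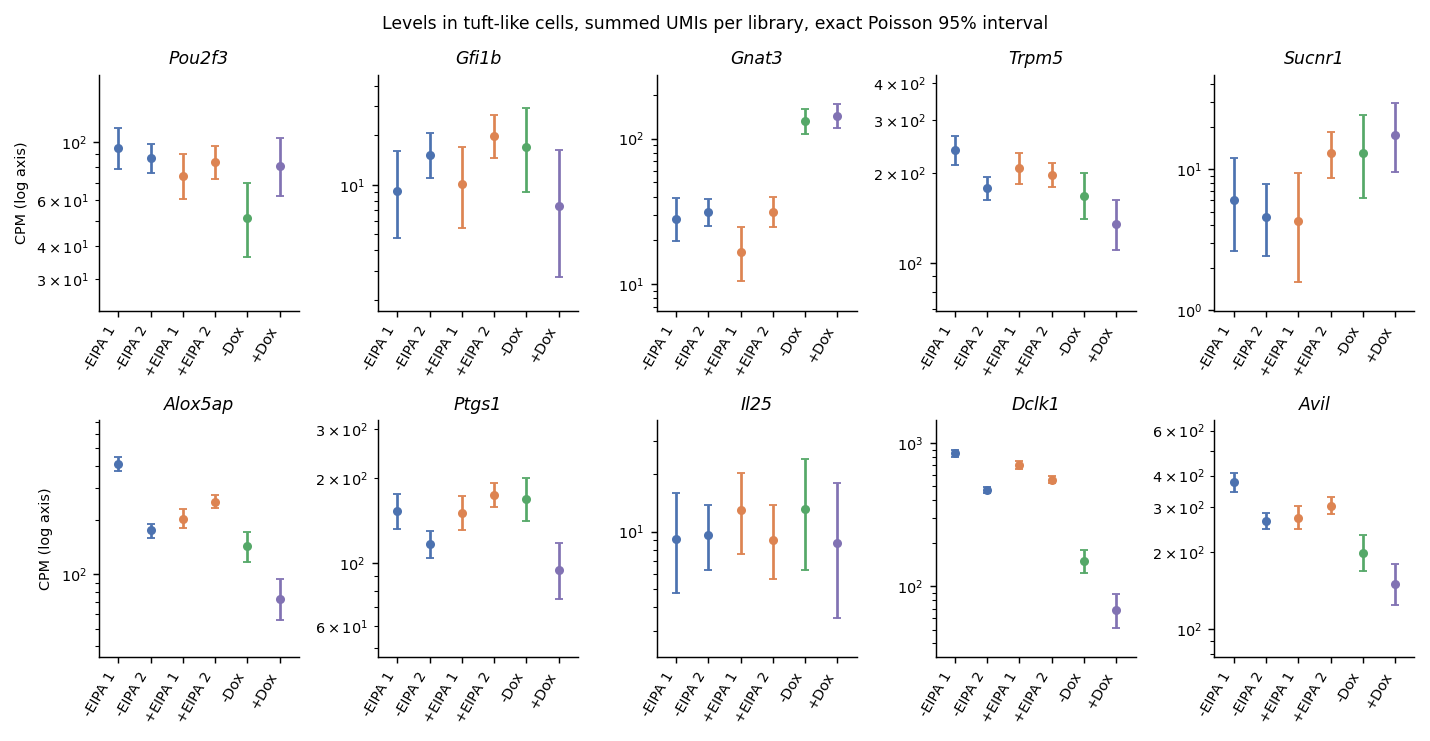
Level of each gene in the tuft-like cells of each of the 6 libraries, in CPM on a log axis, with exact 95% Poisson intervals that cover counting error only. The -EIPA and +EIPA points overlap in 9 of the 10 genes, Dclk1 is lower in -Dox (149 CPM) and +Dox (68.4 CPM) than in the 4 WT libraries, and Gnat3 is higher (131 and 143 CPM).

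Summed over all cells kept, edgeR again called 0 of the 10 genes with EIPA, where it called 0.0% of 15890 genes (1601 had an unadjusted p under 0.05, DESeq2 called 614, and the blocked edgeR fit 836 or 5.26%, with 0 of the 10 in both). In such sums, fewer tuft-like cells and less RNA per cell cannot be told apart. Dclk1 had 7.66 and 6.63 CPM in -EIPA against 7.81 and 6.48 CPM in +EIPA, Trpm5 2.29 and 2.93 against 2.58 and 2.70 CPM, and Avil 3.43 and 3.99 against 3.12 and 3.85 CPM. Ptgs1 was the only member whose groups did not overlap, with 1.47 and 1.69 CPM in -EIPA against 1.75 and 2.09 CPM in +EIPA (log2 fold change 0.37, SE 0.20, adjusted p = 0.648), among 47.1% of all genes that did not overlap. Outside the tuft-like cells 6 members had enough counts to be tested and 0 were called (0.0% of 15814 genes, and 929 or 5.87% with the block, again with 0 of the 6). Their log2 fold changes there ran from -0.32 for Pou2f3 to 0.70 for Dclk1 (SE 0.41, adjusted p = 0.665), with 5 of the 6 above 0. Outside cells chosen by 4 naming markers Dclk1 was at -0.023 and 2 of the 6 were above 0.

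**Figure D3:**
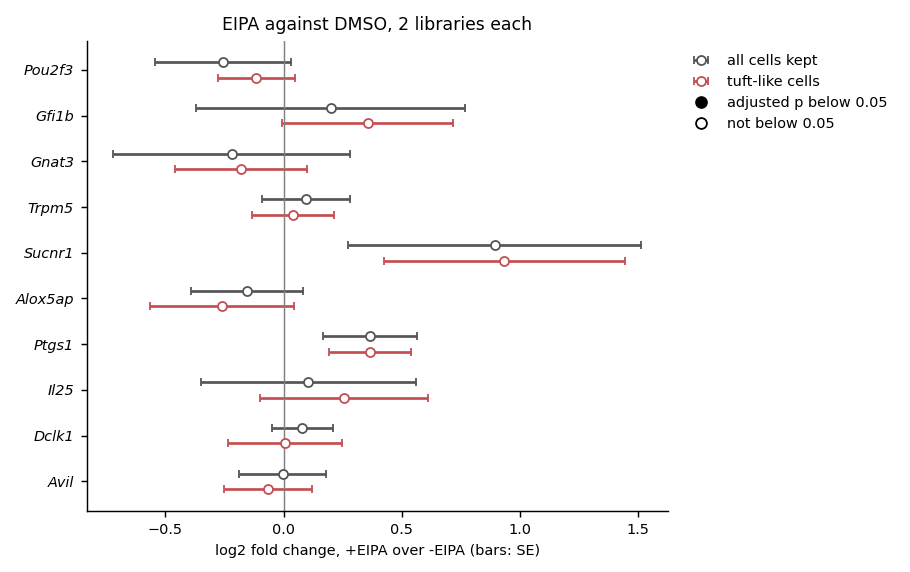
Log2 fold change of each gene with EIPA against without, with its SE, from the edgeR fits over 2 libraries per group, in all cells kept (grey) and in tuft-like cells (red). All points are open because no adjusted p was below 0.05, and the values run from -0.26 (Pou2f3 in all cells, Alox5ap in tuft-like cells) to 0.93 (Sucnr1 in tuft-like cells).

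Of 30 further genes listed for tuft cell signalling, 24 were tested in tuft-like cells with EIPA and 0 were called by edgeR (0 by DESeq2, and 0 when the block was fitted), with a median log2 fold change of 0.09. The 4 with the highest level were Krt18, a keratin of simple epithelia (log2 fold change -0.04, SE 0.17), the surface glycoprotein gene Cd24a (0.16, SE 0.19), Gng13, the gamma subunit that pairs with gustducin (-0.17, SE 0.24), and the actin-bundling gene Espn (0.07, SE 0.16). Over all cells 28 were tested and 0 were called by edgeR. DESeq2, which called 614 of 15890 genes, called Ptgs2, Krt23 and Espn higher, and the blocked edgeR fit, which called 836 (5.26%), called Krt23 and Espn. In the unblocked edgeR fits, Espn was at 1.0097 (SE 0.22) outside tuft-like cells and 0.07 in them, and Krt23 at 0.83 (SE 0.25) outside and 0.10 in them. Ptgs2 had too few counts in tuft-like cells to be tested.

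The CRISPR organoids were compared next. Dox against no Dox rests on 1 library each, with no replicate check and no test, and +Dox alone was sorted for GFP. Of the 10 genes in tuft-like cells, 2 were at least 2-fold (1 on the log2 scale) lower in +Dox, Dclk1 and Gfi1b, and 0 were that much higher, against 8.65% of 9219 counted genes past this size (4.87% higher, 3.77% lower). Dclk1 had 149 CPM (114 UMIs) in -Dox and 68.4 CPM (55 UMIs) in +Dox, a log2 ratio of -1.12 with a 95% counting interval of -1.62 to -0.65. Gfi1b rested on 13 and 6 UMIs, with a log2 ratio of -1.13 and an interval of -2.87 to 0.31 that spans 0. The other products and structural genes were lower by less, with log2 ratios of -0.96 for Alox5ap (143 and 73.4 CPM), -0.83 for Ptgs1 (169 and 94.6 CPM), -0.40 for Avil (199 and 151 CPM) and -0.32 for Trpm5 (168 and 134 CPM). Pou2f3 was on the other side, with 51.1 CPM in -Dox and 80.9 CPM in +Dox (log2 ratio 0.65, interval 0.07 to 1.27). Gnat3 had 131 and 143 CPM, Sucnr1 13.1 and 17.4 CPM, and Il25 13.1 and 8.71 CPM, all with intervals that span 0. For Trpm5 the exact 95% Poisson intervals of CPM overlap (140 to 199 in -Dox, 110 to 162 in +Dox). Those of Avil also overlap (169 to 234 in -Dox, 125 to 180 in +Dox), and those of Alox5ap and Ptgs1 do not.

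The tuft-like cells of these 2 libraries also differed in markers of other cells. Their enterocyte markers summed to 2207 CPM in -Dox and 8694 CPM in +Dox, their Paneth markers to 1278 and 6901 CPM, and their tuft naming markers to 3007 and 1906 CPM, and the part of these in the Dox values was not tested. Per 100 UMIs of the naming markers, Dclk1 was at 4.97 and 3.59 and Alox5ap at 4.75 and 3.85 UMIs in -Dox and +Dox, while Trpm5 was at 5.58 and 7.05, Avil at 6.63 and 7.90, Gnat3 at 4.36 and 7.51 and Pou2f3 at 1.70 and 4.24. On that scale Trpm5, Avil and Il25 (0.436 and 0.457, from 10 and 7 UMIs) were higher in +Dox, opposite to their CPM. Over all cells, Dclk1 alone of the 10 was past the 2-fold size (0.542 and 0.241 CPM, log2 ratio -1.16, interval -1.65 to -0.71), against 11.8% of 16548 genes (9.18% higher, 2.59% lower).

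Compared with the -EIPA libraries, the -Dox library of the CRISPR organoids had less Dclk1 and more Gnat3 in its tuft-like cells. A gene was counted here when it was at least 2-fold apart, in the same direction, from both -EIPA libraries, which 3 of the 10 genes and 7.63% of 11057 genes were (2.76% higher, 4.87% lower). Dclk1 had 149 CPM against 853 and 472 CPM, log2 ratios of -2.51 and -1.65. Gnat3 had 131 CPM (100 UMIs) against 28.2 and 31.1 CPM, log2 ratios of 2.21 and 2.07. Sucnr1 was also higher, with 13.1 CPM from 10 UMIs against 6.09 and 4.59 CPM from 8 and 13 UMIs, and its interval against -EIPA replicate 1 spans 0 (-0.39 to 2.65). Over all cells 6 genes were lower (Pou2f3, Dclk1, Trpm5, Alox5ap, Ptgs1 and Avil) and 0 higher, against 12.6% of 17506 genes (3.06% higher, 9.54% lower). The count of lower members was 5 under strict limits on cells, where 1609 of 17370 counted genes were lower. It was also 5 with high doublet scores removed, where 1591 of 17247 were lower. The share of tuft-like cells was also lower, at 0.460% against 1.47% and 2.196%. Gnat3 over all cells had 0.456 CPM in -Dox and 0.235 and 0.422 CPM in -EIPA.

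To use all libraries, a fit added after these values had been seen set the 2 CRISPR libraries against the 4 WT libraries, with a term for inhibitor or Dox and a term for the line. Per the paper, both CRISPR libraries came from 1 preparation and the WT libraries from 2. The fit had no term for the preparation, and it gave EIPA and Dox 1 shared effect. In it the line, its culture, its preparation, Dox and the sort of the +Dox cells cannot be told apart from each other. Its p-values do not measure a spread between CRISPR preparations, and the residual degrees of freedom were 3. In tuft-like cells edgeR's quasi-likelihood test called 4 of the 10 genes, against 4.21% of 9377 genes tested (2.47% higher, 1.74% lower). Dclk1 was lower in the CRISPR organoids, with 149 and 68.4 CPM against 472 to 853 CPM (log2 fold change -2.66, SE 0.30, adjusted p = 3.23e-04). Gnat3 was higher, with 131 and 143 CPM against 16.5 to 31.4 CPM (log2 fold change 2.26, SE 0.20, adjusted p = 3.88e-05). For both genes the groups did not overlap, and the call held when any single library was left out, with library sizes in place of TMM, with high doublet scores removed and with tuft cells taken by 4 naming markers, at log2 fold changes of -3.30 to -2.17 for Dclk1 and 1.83 to 2.54 for Gnat3. Without -Dox or +Dox the CRISPR group is 1 library, which is then assumed to vary as the WT libraries do. Each of these fits still rests on the 1 CRISPR preparation, so they do not show how the values vary between preparations.

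Alox5ap (log2 fold change -1.35, SE 0.31, adjusted p = 0.0251) and Avil (-0.86, SE 0.18, adjusted p = 0.0156) also passed the edgeR test, with 143 and 73.4 CPM against 175 to 409 CPM and 199 and 151 CPM against 265 to 376 CPM. These calls did not hold with every library left out. Alox5ap no longer passed without +EIPA replicate 2 (-1.26), without -Dox (-1.74) or without +Dox (-1.04), nor Avil without -Dox (-1.05) or without +Dox (-0.70). Neither passed when tuft cells were taken by 4 naming markers (Alox5ap -1.14, adjusted p = 0.0946, and Avil -0.68, adjusted p = 0.0838). Trpm5 had 168 and 134 CPM against 177 to 238 CPM (-0.49, adjusted p = 0.134), and passed without -EIPA replicate 2 (-0.63, adjusted p = 0.0261) and with high doublet scores removed (-0.85, adjusted p = 0.0121). Pou2f3 (-0.42, adjusted p = 0.324), Ptgs1 (-0.23, adjusted p = 0.701), Gfi1b (-0.29, adjusted p = 0.830), Il25 (0.06, adjusted p = 0.965) and Sucnr1 (1.015, SE 0.46, adjusted p = 0.296) did not pass this edgeR test. In tuft-like cells the 2 lines did not overlap in 16.4% of 11939 genes higher and 11.6% lower, and among the members in Gnat3 and Sucnr1 higher and in Dclk1, Alox5ap, Trpm5 and Avil lower.

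**Figure D4:**
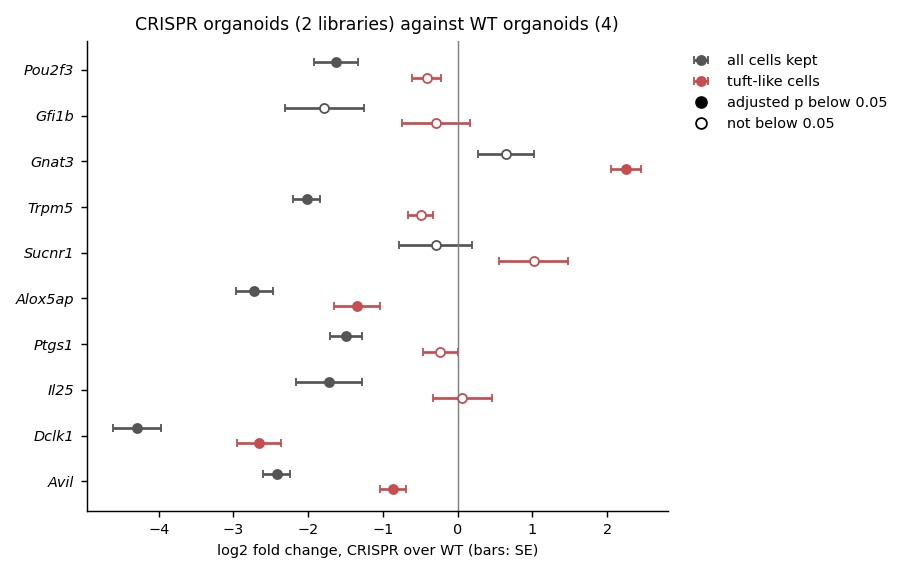
Log2 fold change of each gene in the 2 CRISPR libraries against the 4 WT libraries, with its SE, from edgeR fits with terms for inhibitor or Dox and for the line, in all cells kept (grey) and in tuft-like cells (red), with filled points for an adjusted p below 0.05. In tuft-like cells Gnat3 lies at 2.26 and Dclk1 at -2.66. In all cells, where the share of tuft-like cells was also lower in the CRISPR libraries, 7 genes are lower, from -1.50 (Ptgs1) to -4.29 (Dclk1).

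Markers of other cells moved with the line too. In the tuft-like sums EEC markers were at 5.24 and 17.4 CPM in the CRISPR libraries against 158 to 333 CPM in WT, and ISC markers at 2269 and 2938 against 1121 to 1770 CPM. Their part in the member values was not tested. Per 100 UMIs of the naming markers, Dclk1 was at 4.97 and 3.59 UMIs in the CRISPR libraries and at 14.2 to 20.9 in WT, and Gnat3 at 4.36 and 7.51 against 0.490 to 0.935, so both kept their side on this scale. Trpm5 (5.58 and 7.05 against 5.27 to 6.14) and Avil (6.63 and 7.90 against 7.98 to 8.40) were closer. In sums over all cells, fewer tuft-like cells and less RNA per cell cannot be told apart. Tuft-like cells made up 0.460% and 0.463% of the CRISPR cells against 1.36% to 2.196% of the WT cells. Over all cells edgeR called 7 of the 10 genes lower in the CRISPR organoids, against 25.4% of 16479 genes (2143 higher, and 2037 or 12.4% lower). The median log2 fold change was -1.75 over the members (-0.35 in tuft-like cells) and 0.00 over all genes (0.000635). Dclk1 was at -4.29 (SE 0.32), Alox5ap at -2.72, Avil at -2.42, Trpm5 at -2.02, Il25 at -1.72, Pou2f3 at -1.63 and Ptgs1 at -1.50. Gnat3 was at 0.65 (SE 0.38, adjusted p = 0.261). The 2 lines did not overlap in 8 members that were lower, all but Gnat3 and Sucnr1, where 15.9% of 18756 genes were lower without overlap, and in Gnat3, which was higher, as were 22.9% of genes. Il25 lost the call without any of 5 single libraries (each except -EIPA replicate 1, at -2.05 to -1.44) and with high doublet scores removed (-1.37), Pou2f3 without -Dox (-1.31) or without +Dox (-1.99), and Ptgs1 without +Dox (-1.24), while Gfi1b (-1.78) gained it without -EIPA replicate 1.

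The share of single tuft-like cells with a UMI, at a matched depth of 2000 UMIs, describes the same cells and UMIs in another way. At this depth 32.1% of the +Dox tuft-like cells had 0 of the 10 genes, against 10.3% to 21.8% in the other libraries. Matching depth does not match the tuft naming markers, at 3007 CPM in -Dox and 1906 CPM in +Dox. Their part in these shares was not tested. Dclk1 was found in 69.0% and 47.9% of the tuft-like cells of -EIPA, 61.6% and 55.8% of +EIPA, 32.1% of -Dox and 16.1% of +Dox (9 of 56 cells, exact 95% interval 7.62% to 28.3%). Gnat3 was found in 7.07%, 5.90%, 2.26%, 5.66%, 28.2% and 23.2% of cells in the same order. The share for Trpm5 ran from 30.4% in +Dox to 49.5% in -EIPA replicate 1, and that for Alox5ap from 12.5% in +Dox to 51.6% in -EIPA replicate 1. In enterocyte-like cells, which should lack these genes, Dclk1 was found in at most 0.314% of cells per library. Median depths before thinning, over the cells with at least 2000 UMIs, were 11019 to 16825 UMIs in those cells and 5364.5 to 7896 UMIs in tuft-like cells. Il25 was found in 0 of the 56 +Dox cells at this depth and in 6 of them (10.7%) before thinning.

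**Figure D5:**
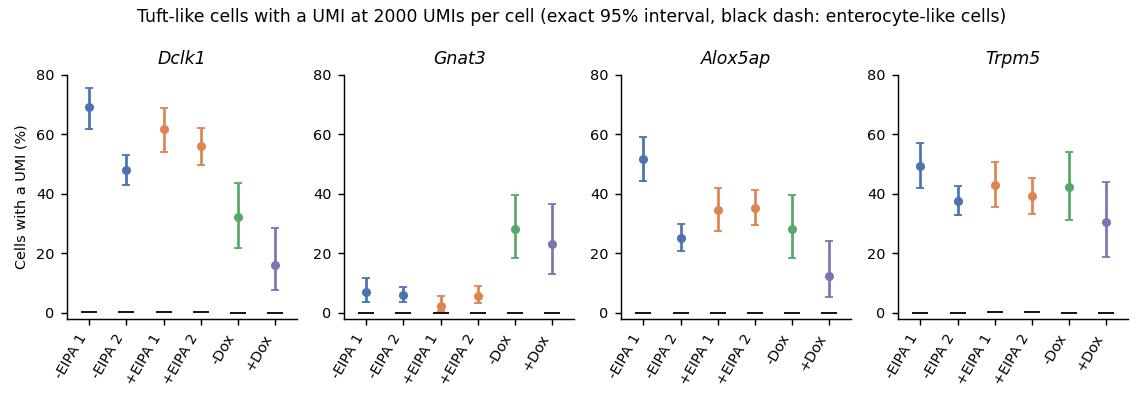
Share in percent of tuft-like cells with a UMI of Dclk1, Gnat3, Alox5ap or Trpm5 after thinning each cell to 2000 UMIs, per library, with exact 95% binomial intervals, and black dashes for enterocyte-like cells. Dclk1 lies at 47.9% to 69.0% in the WT libraries and at 32.1% and 16.1% in the CRISPR libraries, and Gnat3 at up to 7.07% and at 28.2% and 23.2%.

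Genes that work beside the members also differed between the lines. Of the 30 further tuft genes, 25 were tested in tuft-like cells, and edgeR called 5 lower and 0 higher in the CRISPR organoids, where 1.74% of all genes tested were lower and 2.47% higher. The list's median change was -0.85 on the log2 scale. Hmx3, a homeobox transcription factor gene, had 116, 138, 103 and 130 UMIs in the tuft-like cells of the WT libraries and 0 in both CRISPR libraries, which is at least 32.4-fold lower (62.0 CPM over WT against 1.92 CPM for 3 counts over both CRISPR sums). Alox5, the 5-lipoxygenase that Alox5ap serves, had 74, 56, 66 and 68 UMIs in WT, 1 in -Dox and 0 in +Dox (adjusted p = 7.67e-03). Gng13 had 387, 400, 230 and 432 CPM in WT and 155 and 112 CPM in the CRISPR libraries (log2 fold change -1.51, SE 0.23), the opposite direction to Gnat3. Krt18 (-1.12, SE 0.15) and Cd24a (-0.79, SE 0.17) made up the 5, and Espn, the last of the 4 with the highest level, was at -0.43 (adjusted p = 0.122). Per 100 UMIs of the naming markers Cd24a overlapped between the lines (37.2 and 53.1 against 41.2 to 56.6 UMIs), Krt18 was at 44.3 and 66.3 against 68.1 to 78.9 and Gng13 at 5.14 and 5.87 against 6.82 to 12.04. The EEC and ISC markers that moved with the line are given above, and their part in these values was not tested. The count of lower genes on the list was 13 without -EIPA replicate 2, where 242 of all 9129 genes tested were lower. With high doublet scores removed it was 14, where 239 of 8224 were lower. Without +Dox, which leaves 1 CRISPR library, fewer were called and the list's median log2 fold change was -0.41.

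Hmx3, Gng13 and Alox5 were also past 2-fold in -Dox alone against both -EIPA libraries, among 26 counted genes (4.87% of all counted genes were lower and 2.76% higher), and Gnb3 was higher there, with 13.1 CPM from 10 UMIs against 3.81 and 3.53 CPM from 5 and 10. In all cells the share of tuft-like cells was also lower in the CRISPR libraries. There the fit over 6 libraries called 17 of 28 tested genes lower, where 12.4% of all genes tested were lower. It called 1 higher, Espn (0.53, SE 0.14), where 2143 of 16479 genes were higher. Espn lost the call without any of the +EIPA replicate 1, +EIPA replicate 2, -Dox and +Dox libraries and with high doublet scores removed (0.42 to 0.63 over these). Without +Dox or without -Dox, which leaves 1 CRISPR library, fewer genes on the list were called lower. The list's median log2 fold change was then -1.58 or -2.14, against -1.86 with all 6 libraries. Between +Dox and -Dox, 6 of 23 counted genes in tuft-like cells were lower and 0 higher, where 3.77% of all counted genes were lower and 4.87% higher. They were the surface receptor gene Cd300lf (7 and 28 UMIs, log2 ratio -2.001), Chat, which makes acetylcholine (4 and 14 UMIs, -1.76), Inpp5d (9 and 24 UMIs, -1.44), Il17rb, a subunit of the IL-25 receptor (4 and 10 UMIs, -1.30), Vav1 (20 and 47 UMIs, -1.29) and the taste receptor gene Tas1r3 (3 and 7 UMIs, -1.17). The counting intervals of Il17rb and Tas1r3 span 0. In the same sums the tuft naming markers were at 3007 CPM in -Dox and 1906 CPM in +Dox, and the enterocyte and Paneth markers were higher in +Dox, as given above for the members, and their part in these ratios was not tested.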

How the data were processed

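Per the labels, mm10 gene counts of the 6 libraries were made by the authors with Cell Ranger (6.1.2) from 10x Chromium 3′ libraries, and the deposited values are raw UMI counts per gene and barcode. Barcodes had to show 1000 genes or more, with mitochondrial UMIs below 20%, to enter (1500 genes and 10% as an alternative). Within each library, counts were turned into Pearson residuals of a negative binomial model with overdispersion 100. From 3000 variable genes, 45 principal components (20 as an alternative) and a graph of shared neighbours (20 per cell), cells were clustered by the Leiden method in igraph 0.11.9 at resolution 0.8 (0.4 as an alternative). No correction between libraries was made. The 10 genes and the 30 further tuft genes were kept out of clustering and naming. A cluster was named from its 20 leading genes, with at least 2 markers leading and at least 3 higher. As an alternative with no clustering, tuft cells were taken as cells with a UMI of at least 4 of the 12 naming markers.

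The members and all gene lists were chosen with earlier results of these data known. The genes named are the 10 members, the 4 further tuft genes with the highest level in tuft-like cells, further tuft genes past a test or the 2-fold size, and genes among the 3 most like a member. The gene targeted in the CRISPR organoids and 1 gene like a member are not reported here.

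UMIs were summed per library and cell set and tested with edgeR 4.0.16 (quasi-likelihood, TMM, filterByExpr, R 4.3.3), with Benjamini-Hochberg adjustment over all genes tested and SE taken as the log2 fold change over the square root of F. DESeq2 1.42.0, library sizes, no filter on low counts, each library left out and the experiment as a block were alternatives. Comparisons of 1 library with 1 used log2 ratios with a pseudocount of 0.5 (2 as an alternative), genes with at least 10 UMIs, and no test. P-values measure the spread between these libraries only. The study's source data list same-numbered -EIPA and +EIPA libraries as 1 experiment. Their deviations from group means correlated at 0.732 in all cells, 0.200 in tuft-like cells and 0.729 in the rest. Cells were thinned to 2000 UMIs (5000 as an alternative). Doublets were not removed in the values reported, and scores came from Scrublet in Scanpy 1.11.5. Removing the 10% highest scores per library took a larger part of the tuft-like UMIs from the WT libraries than from the CRISPR libraries. The sums fell from 1312743 to 774139 and from 2829555 to 1551611 UMIs in -EIPA. In +EIPA they fell from 1391104 to 890950 and from 2323192 to 1241659 UMIs. They fell from 762887 to 580527 UMIs in -Dox and from 803639 to 736556 UMIs in +Dox. Scripts were tested on simulated data. NumPy 2.4.6, SciPy 1.17.1, pandas 2.3.3 and Matplotlib 3.10.9 were used.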

Additional observations from a re-analysis of the deposited data

How the results depend on the processing

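With the experiment as a replicate block, edgeR called 836 genes with EIPA in all cells, 15 in tuft-like cells and 929 outside them, against 0 in each without it, and 0 members either way. DESeq2 called 614, 5 and 614 genes, and no filter on low counts 198, 66 and 182. Leaving out 1 library gave 0 to 137 genes in all cells, 4 to 109 in tuft-like cells and 0 to 109 outside them, with 0 to 1 member called in tuft-like cells (Alox5ap without -EIPA replicate 2). In tuft-like cells strict limits gave 14 genes, resolution 0.4 gave 1, 20 principal components gave 1 and selection by 4 naming markers 82. The causes were not tested.

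In the fit of both CRISPR against 4 WT libraries, chosen after seeing the data, leaving out 1 library gave 4 to 8 members and 1078 to 3768 genes in all cells, and 2 to 5 members and 38 to 471 genes in tuft-like cells, where selection by 4 naming markers gave 2 members (Dclk1 and Gnat3). With that selection the fit called 472 of 10336 genes (4.57%). In the tuft-like cluster, with all 6 libraries, it called 4 members and 4.21% of 9377 genes. Between +Dox and -Dox, 1 member was past 2-fold in tuft-like cells with a pseudocount of 2 (546 of 9219 genes), 4 under strict limits (829 of 9065), 4 by 4 naming markers (807 of 9760) and 3 with high doublet scores removed (803 of 8887). The tuft-like share was 1.23% and 1.73% in -EIPA and 1.10% and 1.57% in +EIPA under strict limits. With high doublet scores removed it was 1.29% and 1.98% in -EIPA against 1.28% and 1.75% in +EIPA. By 4 naming markers it was 1.55% and 2.31% in -EIPA against 1.83% and 2.16% in +EIPA, so that the +EIPA share was the higher of the pair in replicate 1. Cells so chosen held 86.0% of member UMIs. The share of tuft-like cells with at least 3 members was 55.3% at 5000 UMIs and 78.2% without thinning.

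Directions of members that did not pass turned in several settings. With EIPA in all cells the log2 fold change was -0.0012 for Dclk1 with library sizes, -0.025 for Il25 under strict limits and -0.021 with high doublet scores removed, and 0.054 for Avil with these removed. In tuft-like cells Dclk1 was at -0.066 with library sizes, -0.14 under strict limits, -0.014 without high doublet scores, -0.069 with 20 principal components and -0.29 by 4 naming markers. Trpm5 was at -0.034, -0.16, -0.028 and -0.23 with library sizes, strict limits, 20 components and 4 markers, and Il25 at -0.020 without high doublet scores and -0.028 by 4 markers. Outside cells chosen by 4 markers, Dclk1 was at -0.023, Alox5ap at -0.34 and Avil at -0.012. In the fit of the lines in tuft-like cells, Gfi1b was at 0.25 by 4 markers and Il25 at -0.16 without high doublet scores.

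Leaving out 1 library, the EIPA log2 fold changes in all cells ran from -0.52 to 0.071 for Pou2f3, -0.37 to 0.90 for Gfi1b, -0.021 to 0.18 for Dclk1, -0.82 to 0.29 for Gnat3, -0.079 to 0.30 for Trpm5, -0.030 to 1.43 for Sucnr1, -0.25 to 0.63 for Il25, -0.37 to 0.10 for Alox5ap and -0.20 to 0.17 for Avil. In tuft-like cells they ran from -0.28 to 0.85 for Gfi1b, -0.36 to 0.49 for Dclk1, -0.77 to 0.14 for Gnat3, -0.17 to 0.26 for Trpm5, -0.76 to 0.46 for Alox5ap and -0.30 to 0.20 for Avil. Outside tuft-like cells they ran from -0.66 to 0.14 for Pou2f3, -0.021 to 1.22 for Trpm5, -0.0075 to 0.52 for Alox5ap and -0.012 to 1.22 for Avil. Between the lines they ran from -0.55 to 0.12 for Sucnr1 in all cells, and in tuft-like cells from -1.17 to 0.37 for Gfi1b, -0.39 to 0.46 for Il25 and -0.89 to 0.32 for Ptgs1.

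With 56 to 400 tuft-like cells per library, Gfi1b, Sucnr1 and Il25 rested on 6 to 46 UMIs per library, and Sucnr1 was not testable in tuft-like cells without +EIPA replicate 2, under strict limits or with high doublet scores removed. Scrublet's automatic threshold was not run as an alternative because it marked about 0 of the cells in 3 libraries. The 10% highest scores were removed instead, a choice made after seeing the data.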
